A study of Rattus norvegicus with 10 samples.

Results

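The 43 genes described here encode lysosomal proteins and proteins of autophagy, taken as a fixed list of names from the 17168 genes of the expression table. They divide by role into 12 lysosomal hydrolases, 3 cofactors of the lysosomal lumen, 6 proteins of the lysosomal membrane, the transcription factor Tfeb, the segregase Vcp and 20 genes that build or load the autophagosome. All 43 were found in the table (Ctsl under the older name Ctsl1) and all 43 had counts high enough to be tested. RNA was sequenced from left hippocampi of male TgF344-AD rats, a transgenic model of Alzheimer's disease, 10 in all, perfused at 11 months of age. The 5 untreated rats ate plain rodent chow. The other 5 ate chow with 750 mg/kg of RG2833, which inhibits HDAC1 and HDAC3 (enzymes that remove acetyl groups from histones), for 6 months from 5 months of age. All 10 rats carry the transgene, so there is no wild-type level here to set these values against, and females were not analysed here. The tissue is a whole hippocampus, in which fewer cells of a type and less RNA per cell cannot be told apart.

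Lysosomes are acidic organelles whose hydrolases break down proteins, lipids and sugar chains, and the membrane proteins of the organelle shield it, move its products out and connect it to other compartments. In macroautophagy a kinase complex and a lipid kinase start a double membrane, conjugation enzymes couple Atg8-family proteins to it, and receptors such as p62 bring cargo before it fuses with a lysosome. TFEB is known to activate many lysosomal and autophagy genes together, and in Alzheimer's disease swollen, undegraded autophagic vacuoles accumulate in neurites.

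The libraries held from 15118203 to 18533520 counts, and 12161 genes were tested. Levels are given in CPM, counts scaled to 1000000 per library after TMM normalization, which sets library sizes from the genes that differ least. CPM is not divided by transcript length, so levels are compared between libraries and not between genes. Some facts about the libraries touch the results. Markers of choroid plexus, the epithelium that makes cerebrospinal fluid, summed to 34.7 to 8499 CPM in untreated and 14.5 to 9843 CPM in RG2833 rats, with 2 of the 13 at 0 in at least 1 library, and untreated replicate 2 and RG2833 replicate 1 held far more of them than the other 8 libraries (mean log2 CPM 7.13 and 7.28). Untreated replicate 3 had the highest mean of the 10 microglia markers, 0.64 log2 units above the mean of all libraries (summed level 505 to 970 CPM in untreated and 548 to 784 CPM in RG2833 rats), the lowest mean of the 8 markers of hippocampal neurons, at -1.39 log2 units, and the highest share of ribosomal RNA, 11.4% against 4.07 to 9.37% elsewhere. Markers of hippocampal neurons were present in every library, at a summed level of 1787 to 3317 CPM in untreated and 2004 to 2931 CPM in RG2833 rats, and none was at 0 in any library.

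RG2833-fed and untreated rats did not differ detectably in any of the 43 genes. With edgeR's quasi-likelihood test adjusted over all genes, 0 of 43 had an adjusted p under 0.05, where 0.0% of all tested genes did (smallest value 0.841). Without the adjustment, at p under 0.05, the count was again 0 of 43, against 5.66% of all genes tested (688, of which 358 were higher and 330 lower with RG2833). The values of the 2 groups overlapped for all 43 genes, while 1.0% of all genes did not overlap. The mean was higher with RG2833 for 25 of the 43 and lower for 18 (20 and 23 without RG2833 replicate 1, 21 and 22 without untreated replicate 4, and 28 and 15 with limma-voom or 2 surrogate variables), and the median log2 fold change was 0.017 with a range from -0.17 (Cln3) to 0.17 (Rb1cc1). Over all tested genes the median was -0.011, with 5652 higher and 6509 lower. The unadjusted counts moved when a single library was left out. Without untreated replicate 3 they were 5 of 43 genes and 1732 of all genes. Leaving out RG2833 replicate 1 gave 4 of 43 beside 927 of all genes, and RG2833 replicate 2 gave 1 of 43 beside 648. With RG2833 replicate 4 or 5 left out the counts were 0 of 43 beside 375 or 424 of all genes.

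How large a difference the data leave room for can be read from the 95% intervals of the fold changes. For all 43 genes the interval lay within 1.5-fold in both directions, which held for 75.1% of all tested genes. It lay within 1.25-fold for 31 of the 43, against 41.9% of all genes. The intervals were narrower for autophagosome genes, where 18 of 20 stayed within 1.25-fold, than for hydrolases, where 6 of 12 did. Npc2, which encodes a cholesterol carrier of the lysosomal lumen, had the upper bound farthest from 0, at 45.8% above the untreated level.

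**Figure D1:**
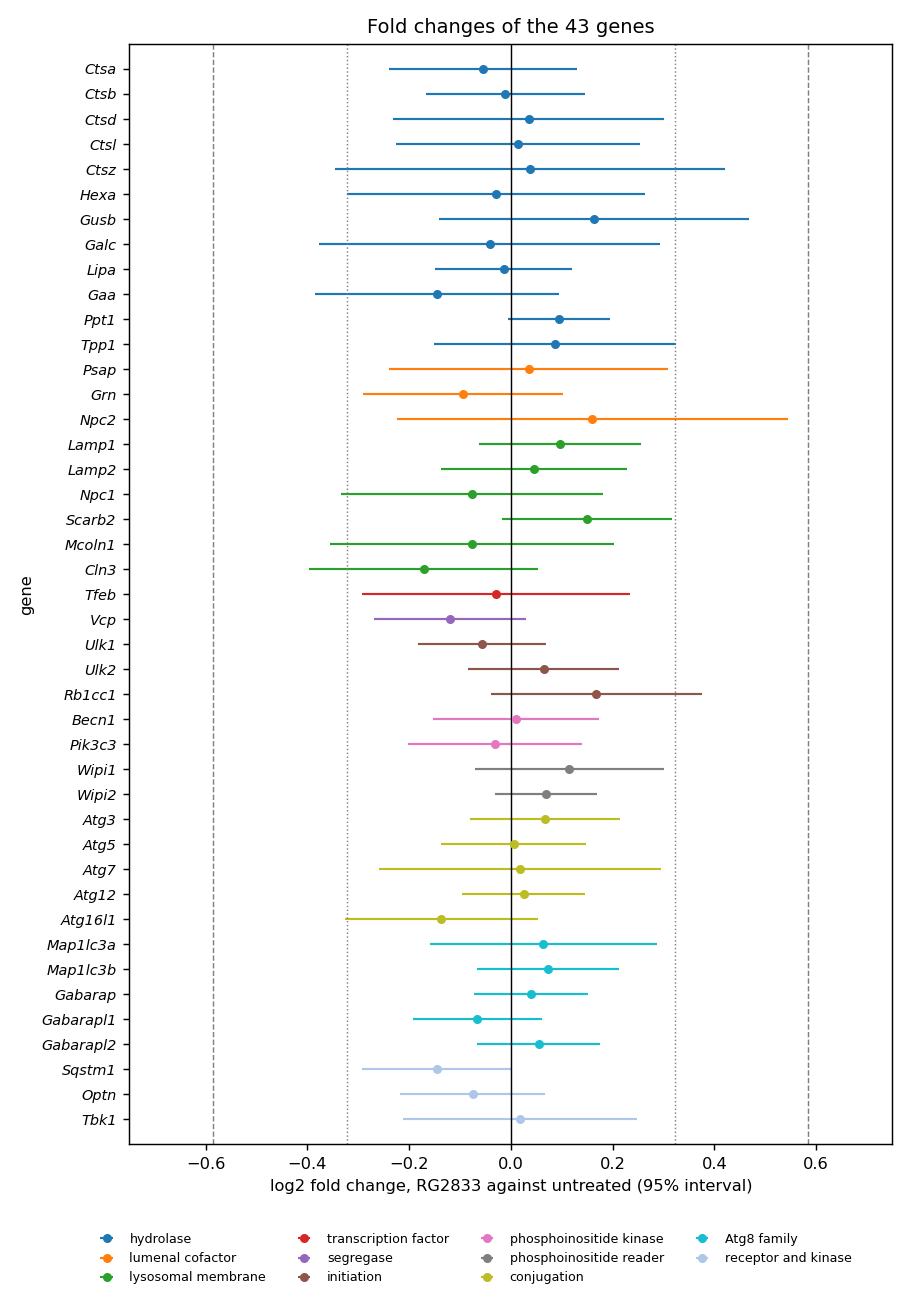
Log2 fold change of each of the 43 genes, RG2833 against untreated, on the x axis, with 1 row per gene, coloured by role; points are edgeR estimates and lines their 95% intervals over 5 rats per group. The dotted and dashed grey lines stand at 1.25-fold and 1.5-fold, and every interval includes 0 and stays inside the dashed lines.

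Hydrolases and autophagosome genes were compared as groups, without a test. Among the 12 hydrolases, 6 had a higher and 6 a lower mean with RG2833, and the median log2 fold change was 0.0015, from -0.15 (Gaa) to 0.16 (Gusb). Among the 20 autophagosome genes, 14 had a higher and 6 a lower mean, and the median was 0.021, from -0.15 (Sqstm1) to 0.17 (Rb1cc1). These splits moved with single libraries: the hydrolases were 9 higher and 3 lower without untreated replicate 2 (and with limma-voom or 2 surrogate variables) and 4 and 8 when untreated replicate 4 or 5 or RG2833 replicate 1 was left out, and the autophagosome genes were 10 and 10 without untreated replicate 3 and 11 and 9 without RG2833 replicate 1. The hydrolase median minus the autophagosome median was -0.02 on the log2 scale. The median standard error of a single gene's log2 fold change was 0.11 in hydrolases and 0.067 in autophagosome genes. The sign of the difference between the medians turned with limma-voom and sample weights (0.0051) and with single libraries left out. It was 0.027 without untreated replicate 3, 0.028 when untreated replicate 2 was left out, 0.0027 when RG2833 replicate 2 was and 0.017 when RG2833 replicate 3 was, and it stayed negative when any of the other 6 was left out.

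The levels of the 2 sets of genes also ran differently across the libraries, which is given as a description with no test. Averaged over the 12 hydrolases, log2 CPM relative to the mean of all libraries was -0.12, 0.16, 0.11, -0.079 and -0.098 in untreated replicates 1 to 5 and 0.21, -0.054, -0.14, -0.012 and 0.02 in RG2833 replicates 1 to 5. Averaged over the 20 autophagosome genes it was 0.037, -0.0056, -0.084, -0.0059 and 0.022 in untreated and 0.024, 0.026, -0.004, -0.017 and 0.0069 in RG2833 replicates. Hydrolases were highest in the 2 libraries rich in choroid plexus markers, with untreated replicate 3 next, whereas the autophagosome genes were nearly level except for a low value in untreated replicate 3. The spread between rats of a group was an SD of 0.13 in both groups for the hydrolases, and of 0.047 (untreated) and 0.018 (RG2833) for the autophagosome genes.

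**Figure D2:**
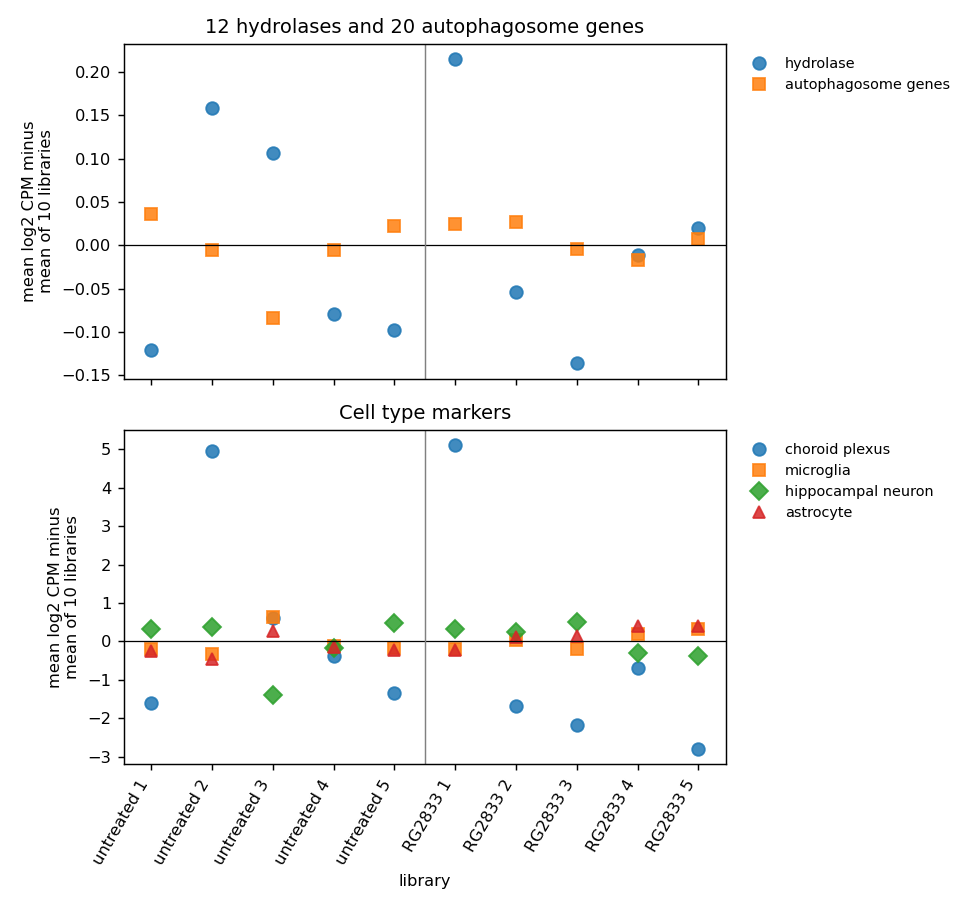
Mean log2 CPM relative to the mean of the 10 libraries (y axis) in each library (x axis): above, the 12 hydrolases and 20 autophagosome genes; below, 4 lists of cell type markers on a wider axis. Hydrolases peak at 0.16 and 0.21 in untreated replicate 2 and RG2833 replicate 1, where choroid plexus markers stand at 4.97 and 5.12, and autophagosome genes are lowest, at -0.084, in untreated replicate 3.

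Gene by gene, 8 of the 12 hydrolases (Ctsa, Ctsb, Ctsd, Ctsl, Hexa, Galc, Gaa and Tpp1) were at their highest within each group in exactly these 2 libraries, untreated replicate 2 and RG2833 replicate 1. The lumenal cofactor Psap did the same, as did Atg7 alone among the 20 autophagosome genes, which makes 10 of 43, beside 11.6% of all tested genes. These libraries hold 1 rat of each treatment, and what part choroid plexus tissue had in the levels was not tested. Untreated replicate 3 was the highest untreated library for 10 of the 43 (Ctsz, Gusb, Grn, Npc2, Lamp1, Lamp2, Scarb2, Cln3, Atg12 and Map1lc3a), against 32.1% of all genes. It was the lowest untreated library for 16 of 43, against 36.4% of all genes. Over the list these shares are 23.3% highest and 37.2% lowest, and neither was tested against the share of all genes. The roles divided unevenly: 12 of the 20 autophagosome genes and 1 of the 12 hydrolases, Ppt1, were lowest there, a division that was not tested.

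**Figure D3:**
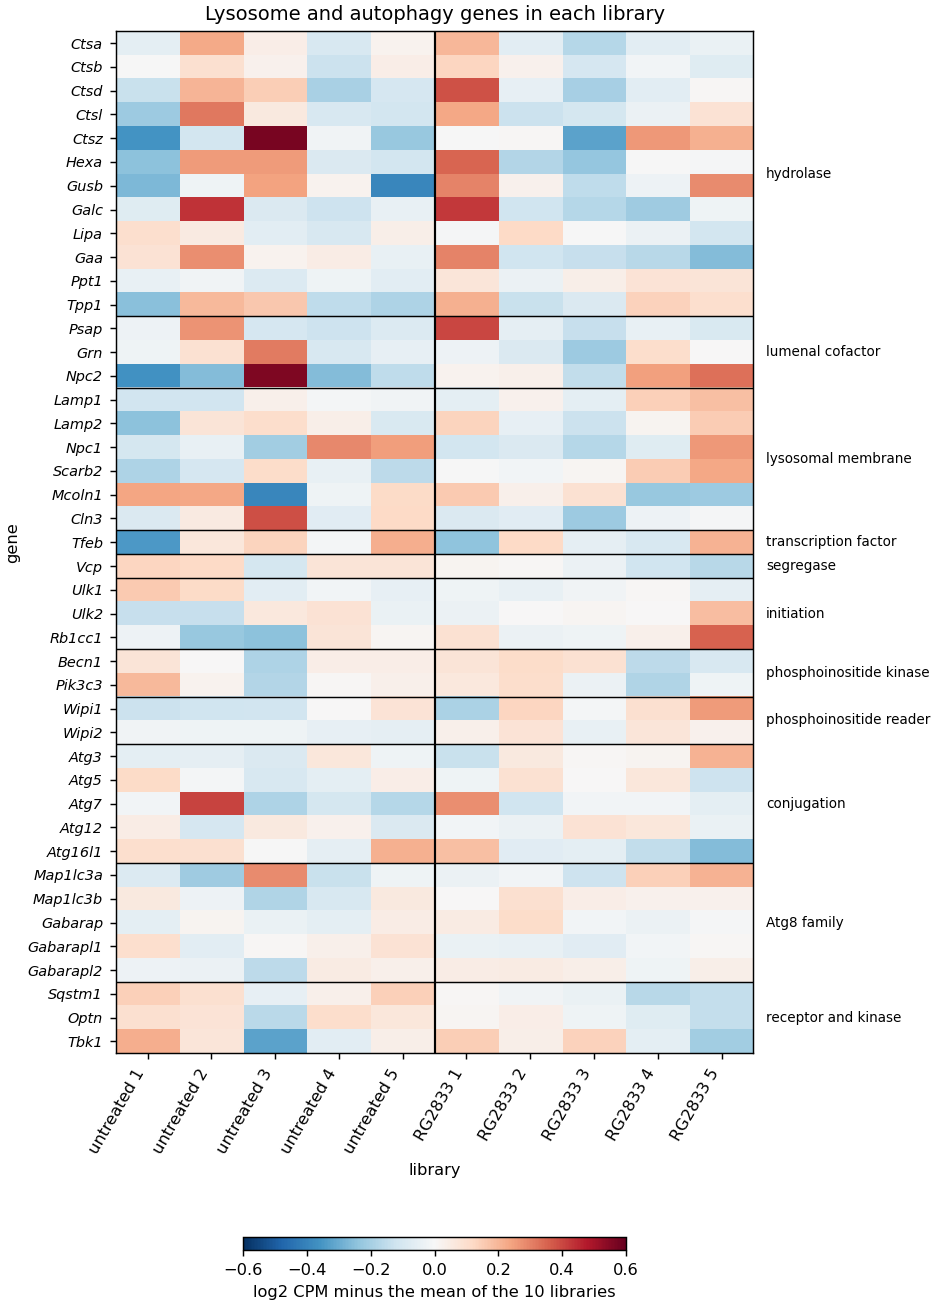
Log2 CPM of the 43 genes (rows, grouped by role) in the 10 libraries (columns, untreated left of the line and RG2833 right of it), each relative to its own mean over the libraries; red is above and blue below that mean, on a scale from -0.6 to 0.6. Most hydrolase rows are red in untreated 2 and RG2833 1, and the column of untreated 3 is red for Ctsz and Npc2 and blue for Mcoln1 and Tbk1.

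The upstream sequences were searched for the motif of TFEB. This factor and its relatives bind an E-box, CACGTG, and favour its extension on both sides, TCACGTGA, which reads the same on both strands. RefSeq promoter windows of 300 bases (250 before to 50 after the annotated start, assembly GRCr8) were at hand for 36 of the 43 genes and for 27457 genes in all. CACGTG occurred in 9 of 36 windows (25.0%, against 6.65% of all windows). TCACGTG, searched on both strands, occurred in 8 (22.2% against 3.43%), and TCACGTGA in 6 (16.7% against 0.867%). Each longer motif contains the shorter ones, so these counts overlap. The windows with the 8-base form belonged to the hydrolase genes Ctsd and Galc, of 9 hydrolases with a window, to Lamp1, Mcoln1 and Cln3, of 8 lysosomal membrane and cofactor genes, and to Atg3, of 17 autophagosome genes. The stretches upstream of the start that hold the motif in these 6 genes are shown because they carry this motif; capitals mark the E-box with the flanking T or A where present.
Ctsd, chr1:206968822-206968993, minus strand: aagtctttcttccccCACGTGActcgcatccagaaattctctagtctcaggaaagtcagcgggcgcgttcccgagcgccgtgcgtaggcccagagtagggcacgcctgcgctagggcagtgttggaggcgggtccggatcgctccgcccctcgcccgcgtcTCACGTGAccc
Galc, chr6:123245560-123245595, minus strand: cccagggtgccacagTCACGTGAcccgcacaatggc
Lamp1, chr16:83075080-83075262, minus strand: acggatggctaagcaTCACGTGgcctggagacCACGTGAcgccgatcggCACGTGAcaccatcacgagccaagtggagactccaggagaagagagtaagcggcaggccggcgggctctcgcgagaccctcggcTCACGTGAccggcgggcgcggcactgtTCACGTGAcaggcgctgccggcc
Cln3, chr1:190597946-190598010, minus strand: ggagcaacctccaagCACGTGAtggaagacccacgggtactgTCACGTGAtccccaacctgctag
Mcoln1, chr12:6358220-6358256, plus strand: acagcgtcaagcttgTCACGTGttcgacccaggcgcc
Atg3, chr11:69159281-69159335, minus strand: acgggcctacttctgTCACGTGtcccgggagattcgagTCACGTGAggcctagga
Lamp1 had the most copies, 5, of which the nearest 8-base form began 39 bases before the start. In Ctsd it began 11 bases before the start, in Galc 21, in Cln3 39 and in Atg3 17, while in Mcoln1 the copy upstream is the 7-base form and the 8-base form lies just past the start and is not shown. The 6 genes with TCACGTGA did not stand out in the comparison of treatments: their log2 fold changes ran from -0.17 (Cln3) to 0.096 (Lamp1) with a median of -0.0033, and 3 of the 6 were higher. The 30 other genes with a window had a median of 0.015, and 17 of the 30 were higher. A motif match is a description of the sequence and no evidence of binding in these rats.

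Tfeb, whose protein binds that motif, was measured at 11.3, 15, 15.6, 14.1 and 16.6 CPM in untreated replicates 1 to 5 and at 12.1, 15.5, 13.8, 13.3 and 16.5 CPM in RG2833 replicates 1 to 5. Both groups covered nearly the same range. The means were 14.5 ± 2.04 and 14.2 ± 1.75 CPM (SD, n = 5 each), with a log2 fold change of -0.03 (95% interval -0.29 to 0.23; exact permutation p = 0.833).

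Among the hydrolases, the cysteine protease cathepsin B, Ctsb, was at 647, 692, 658, 593 and 665 CPM in untreated and at 709, 660, 605, 641 and 615 CPM in RG2833 rats, replicates 1 to 5 in order, which is the order used for all genes that follow. The ranges nearly coincided. Its means were 651 ± 36.6 and 646 ± 41.4 CPM, and the interval of the difference ran from -11.0% to 10.7% (exact permutation p = 0.857). Ctsd, the aspartic protease cathepsin D, was at 409, 516, 497, 393 and 419 CPM in untreated and at 584, 433, 391, 430 and 450 CPM in RG2833 rats. One library in each group, those rich in choroid plexus markers, was the highest. The means were 447 ± 55.7 and 458 ± 73.9 CPM, and the log2 fold change of 0.035 became -0.018 without those 2 libraries (interval with all 10 from -0.23 to 0.30; exact permutation p = 0.841).

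Ppt1, which removes fatty acid chains from proteins and is mutated in infantile neuronal ceroid lipofuscinosis, had the smallest p of the hydrolases. It was measured at 84, 85.1, 81.7, 85 and 82.7 CPM in untreated and at 91.1, 84.4, 88.5, 91.5 and 91.2 CPM in RG2833 rats. Of the 5 RG2833 values, 4 lay above every untreated value and that of replicate 2 lay within the untreated range. The means were 83.7 ± 1.45 and 89.3 ± 2.99 CPM, a log2 fold change of 0.094 (interval -0.0062 to 0.19). It did not pass edgeR's test (unadjusted p = 0.0632, adjusted p = 0.841), and the exact permutation p for this gene alone was 0.0238, before any allowance for its being 1 of 43. Without RG2833 replicate 2 edgeR's unadjusted p was 0.0396 (adjusted p = 0.867), with DESeq2 it was 0.0236 (adjusted p = 0.724) and with 2 surrogate variables 0.0347 (adjusted p = 0.27).

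Ctsz, a carboxypeptidase of the cathepsin family, had the widest interval of the hydrolases. Its levels were 23.8, 28.2, 45.2, 30 and 26 CPM in untreated and 30.4, 30.6, 24.4, 36.5 and 35.3 CPM in RG2833 rats. Untreated replicate 3 was above all other libraries, and the untreated range enclosed the RG2833 range. Ctsz had a log2 fold change of 0.038 (interval -0.35 to 0.42; exact permutation p = 0.746), 0.22 without untreated replicate 3 and -0.0404 without untreated replicate 1. The remaining 8 hydrolases had log2 fold changes from -0.15 for Gaa, the glycogen-degrading acid glucosidase, to 0.16 for Gusb, a glucuronidase that degrades glycosaminoglycans, with unadjusted p from 0.207 to 0.903. Gusb was at 0.094 without untreated replicate 5 and at 0.25 without untreated replicate 3. For Gaa, 4 of the 5 RG2833 rats lay below every untreated rat, and RG2833 replicate 1 lay above them all at 352 CPM. Its log2 fold change was -0.21 without these 2 libraries (unadjusted p = 0.0166, adjusted p = 0.946) and -0.25 without RG2833 replicate 1 alone (adjusted p = 0.654), but -0.092 without untreated replicate 2 alone.

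Of the cofactors, Psap, the precursor of the saposins that present lipids to hydrolases, was at 2058, 2531, 1957, 1931 and 1984 CPM in untreated and at 2773, 2026, 1911, 2035 and 1970 CPM in RG2833 rats. All values apart from those of the 2 libraries rich in choroid plexus markers lay close together. Psap had a log2 fold change of 0.035 with all libraries and -0.005 without these 2. Grn, the precursor of progranulin, was at 86.5, 93.8, 109, 82.5 and 85.1 CPM in untreated and at 86.3, 83, 75.8, 94.9 and 88.2 CPM in RG2833 rats. The groups overlapped and untreated replicate 3 was the highest. Its log2 fold change of -0.095 (interval -0.29 to 0.10; exact permutation p = 0.405) was -0.022 without that library.

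Npc2 was at 125, 134, 236, 134 and 144 CPM in untreated and at 163, 164, 145, 190 and 202 CPM in RG2833 rats. All 5 RG2833 values exceeded the other 4 untreated ones, and untreated replicate 3 exceeded every library. With all libraries the means were 155 ± 46.2 and 173 ± 22.9 CPM, a log2 fold change of 0.16 (interval -0.22 to 0.54; unadjusted p = 0.38, exact permutation p = 0.349). Without untreated replicate 3 the log2 fold change was 0.36, with an unadjusted p of 0.00321 that did not pass edgeR's adjustment (adjusted p = 0.28), and it was 0.092 without untreated replicate 1. The same library had the highest microglia marker level, whose part in the level of Npc2 was not tested.

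On the lysosomal membrane, Scarb2, which carries glucocerebrosidase to the lysosome as the protein LIMP-2, had the smallest p. It was at 161, 170, 197, 177 and 164 CPM in untreated and at 182, 180, 184, 203 and 214 CPM in RG2833 rats. Every RG2833 value was above the untreated mean, and untreated replicate 3 lay among the RG2833 values. The means were 174 ± 14.4 and 193 ± 15 CPM, and the log2 fold change of 0.15 (interval -0.017 to 0.32) did not pass (edgeR's unadjusted p = 0.0736, adjusted p = 0.841; exact permutation p = 0.0794). Without untreated replicate 3 it was 0.20 (unadjusted p = 0.0128, adjusted p = 0.308), and without RG2833 replicate 5 it was 0.11. Lamp1, the main glycoprotein of the membrane, was at 572, 572, 631, 613 and 609 CPM in untreated and at 594, 630, 594, 683 and 701 CPM in RG2833 rats. The groups overlapped, with RG2833 replicates 4 and 5 the highest. Its means were 599 ± 26.3 and 641 ± 49.6 CPM, and the interval ran from -4.29% to 19.3% (exact permutation p = 0.143). The log2 fold change of 0.096 was 0.063 without RG2833 replicate 5 and 0.12 without RG2833 replicate 3.

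Mcoln1, the calcium channel TRPML1, ran the other way in untreated replicate 3. Its levels were 63.7, 63.6, 41.2, 53.2 and 58.7 CPM in untreated and 60.3, 55.3, 57.6, 46.2 and 46.5 CPM in RG2833 rats. Untreated replicate 3 was the lowest of all libraries, followed by RG2833 replicates 4 and 5. For Mcoln1 the log2 fold change was -0.077 (interval -0.36 to 0.20; exact permutation p = 0.667), -0.17 without untreated replicate 3 and -0.026 without RG2833 replicate 4. Cln3, a membrane protein mutated in juvenile neuronal ceroid lipofuscinosis, had the lowest fold change of the list with all 10 libraries, from 11 ± 1.54 to 9.79 ± 0.55 CPM. Its log2 fold change was -0.17 (interval -0.40 to 0.053; unadjusted p = 0.12, exact permutation p = 0.103), and -0.087 without untreated replicate 3, in which it stood at 13.6 CPM. Lamp2 and the cholesterol transporter Npc1 had log2 fold changes of 0.045 and -0.076, and with 1 library left out they ran from -0.0058 to 0.083 and from -0.16 (RG2833 replicate 5 out) to -0.011 (untreated replicate 4 out).

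**Figure D4:**
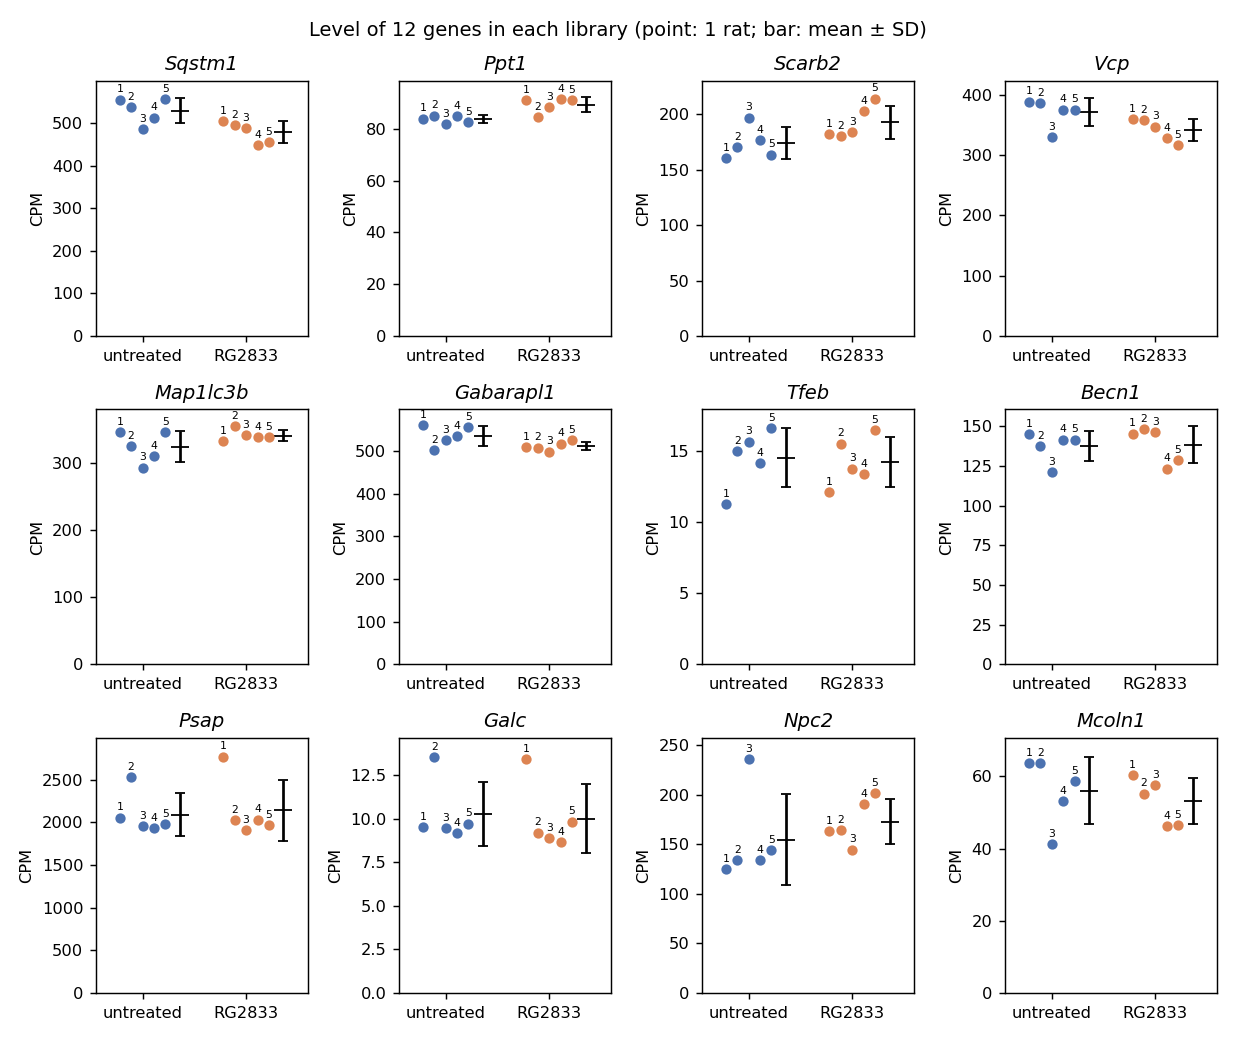
CPM (y axis, from 0) of 12 of the genes in each rat; blue points are untreated and orange points RG2833, the small numbers give the replicate, and the black bars show the mean ± SD of 5 rats. The groups overlap in all 12 panels, untreated replicate 3 lies apart for Npc2 (236 CPM) and Vcp (330 CPM), and untreated replicate 2 and RG2833 replicate 1 lie apart for Psap and Galc.

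Turning to the start of autophagy, Ulk1, the kinase that opens the process, was at 92.6, 89.8, 79.4, 82 and 80.3 CPM in untreated and at 81.7, 80.5, 81.8, 83.6 and 80.1 CPM in RG2833 rats. Untreated replicates 1 and 2 were the highest and the other 8 libraries lay close together. The means were 84.8 ± 5.97 and 81.5 ± 1.38 CPM (exact permutation p = 0.357). Rb1cc1, the scaffold FIP200 of the same complex, had the highest fold change of the list with all 10 libraries. It was at 118, 103, 102, 127 and 122 CPM in untreated and at 129, 118, 119, 123 and 154 CPM in RG2833 rats. RG2833 replicate 5 was the highest and untreated replicates 2 and 3 the lowest. The log2 fold change was 0.17 (interval -0.039 to 0.37; edgeR's unadjusted p = 0.101, adjusted p = 0.841; exact permutation p = 0.143). It was 0.095 without RG2833 replicate 5 and 0.063 with limma-voom, and without untreated replicate 3 it was 0.13, below that of Npc2 (0.36). Ulk2, a related kinase, had a log2 fold change of 0.065, and of 0.027 without RG2833 replicate 5.

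Becn1, a subunit of the lipid kinase complex that marks the new membrane, was at 145, 138, 121, 142 and 142 CPM in untreated and at 145, 148, 147, 123 and 129 CPM in RG2833 rats. Of the RG2833 values, 3 were at the top and 2 near the bottom of a shared range. This gave a log2 fold change of 0.01 (interval -0.15 to 0.17; exact permutation p = 0.937). Pik3c3, the catalytic subunit VPS34, was at 42, 37.2, 32.5, 36.9 and 37.5 CPM in untreated and at 38.3, 39.5, 35.8, 32.4 and 36 CPM in RG2833 rats. The groups overlapped, with untreated replicate 1 the highest and RG2833 replicate 4 and untreated replicate 3 the lowest. Its log2 fold change was -0.031 (exact permutation p = 0.698).

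The lipid mark is read by WIPI proteins. Wipi2 was at 40.8, 40.7, 40.7, 40 and 39.9 CPM in untreated and at 42.3, 43.8, 40.2, 43.6 and 42.1 CPM in RG2833 rats. Of the RG2833 values, 4 lay above a tight untreated range and that of replicate 3 lay within it. The means of 40.4 ± 0.42 and 42.4 ± 1.45 CPM gave a log2 fold change of 0.069 (interval -0.032 to 0.17); edgeR's unadjusted p was 0.161 and the exact permutation p for the gene alone was 0.0317. Wipi1 had a log2 fold change of 0.12 (interval -0.071 to 0.30), which was 0.17 without RG2833 replicate 1 (unadjusted p = 0.0426, adjusted p = 0.654), 0.065 without RG2833 replicate 5 and 0.059 with limma-voom.

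In the conjugation system, Atg5, part of the complex that attaches Atg8-family proteins to lipid, was at 25.6, 23.5, 22.1, 22.8 and 24.4 CPM in untreated and at 23.3, 25.3, 23.7, 24.9 and 21.7 CPM in RG2833 rats. The ranges nearly coincided (log2 fold change 0.0057, interval -0.14 to 0.15; exact permutation p = 0.929). Atg16l1, which positions that complex on the membrane, had the smallest p of the 5 genes. It was at 45.4, 45.2, 42.3, 40.7 and 49.1 CPM in untreated and at 48, 40.4, 40.7, 38.2 and 35.3 CPM in RG2833 rats. All RG2833 values but that of replicate 1 lay below the lowest untreated value, replicate 3 by less than rounding shows. The log2 fold change was -0.14 (interval -0.33 to 0.052; unadjusted p = 0.14, exact permutation p = 0.143), and -0.20 without RG2833 replicate 1 (unadjusted p = 0.0204, adjusted p = 0.654) but -0.088 without RG2833 replicate 5. Atg3, Atg7 and Atg12, enzymes and a modifier of the same system, had log2 fold changes of 0.067, 0.017 and 0.025. With 1 library left out these ran from 0.022 to 0.11, from -0.056 to 0.14 and from 0.0028 to 0.043; the lowest came without RG2833 replicate 5, RG2833 replicate 1 and untreated replicate 2.

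Of the Atg8 family, the proteins that coat the autophagosome, 4 of 5 had a higher mean with RG2833 and none passed the test. Map1lc3b, which encodes LC3B, the usual marker of autophagosomes, was at 345, 324, 292, 310 and 345 CPM in untreated and at 331, 354, 340, 337 and 338 CPM in RG2833 rats. The RG2833 values fell inside the upper part of the untreated range apart from replicate 2, the highest of all. The means were 323 ± 22.8 and 340 ± 8.54 CPM, with an interval from -4.47% to 15.8% (exact permutation p = 0.183), and the log2 fold change of 0.073 was 0.039 without untreated replicate 3. Map1lc3a was at 177, 162, 229, 171 and 184 CPM in untreated and at 183, 186, 172, 207 and 217 CPM in RG2833 rats. Untreated replicate 3 was the highest library and the groups overlapped. Its log2 fold change was 0.064 (interval -0.16 to 0.29; exact permutation p = 0.524), 0.15 without untreated replicate 3 and 0.02 without untreated replicate 2.

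Gabarapl1 was the 1 member of this family with a lower mean. It was at 560, 501, 525, 534 and 556 CPM in untreated and at 509, 507, 498, 517 and 525 CPM in RG2833 rats. No RG2833 value reached the untreated mean, and untreated replicate 2 lay among them. The means were 535 ± 23.9 and 511 ± 10.1 CPM, a log2 fold change of -0.066 (interval -0.19 to 0.061; edgeR's unadjusted p = 0.277, exact permutation p = 0.0714). Gabarap and Gabarapl2 had log2 fold changes of 0.04 and 0.054, with intervals from -4.86% to 11.1% and from -4.48% to 12.9%; they were 0.017 without RG2833 replicate 2 and 0.024 without untreated replicate 3.

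Among the receptors, Sqstm1, which encodes the cargo receptor p62, had the smallest edgeR p of the 43 genes. It was at 555, 537, 486, 513 and 556 CPM in untreated and at 505, 496, 489, 448 and 455 CPM in RG2833 rats. None of the 5 RG2833 rats reached the untreated mean, RG2833 replicates 4 and 5 lay below every untreated value, and untreated replicate 3 was the lowest of its group. The means were 529 ± 29.9 and 479 ± 25.5 CPM, a log2 fold change of -0.15 whose interval, -0.29 to 0.002, reached just past 0. It did not pass (edgeR's unadjusted p = 0.0526, adjusted p = 0.841), and the exact permutation p for the gene alone was 0.0397. The unadjusted p was under 0.05 in 6 of the alternative fits, of which upper-quartile scaling gave 0.0305 and DESeq2 gave 0.0123, and the adjusted p was at least 0.111 in all of them.

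Optn, a receptor for mitochondria and protein aggregates, was at 100, 99.2, 83.8, 101 and 98.4 CPM in untreated and at 94.5, 96.6, 92.3, 89.4 and 85.1 CPM in RG2833 rats. All RG2833 values were below 4 of the untreated ones, and untreated replicate 3 was below them all. The log2 fold change was -0.075 (interval -0.22 to 0.068; exact permutation p = 0.238) and -0.12 without that library (unadjusted p = 0.0458, adjusted p = 0.347), and -0.048 without RG2833 replicate 5. Tbk1, the kinase that activates Optn and p62, had a log2 fold change of 0.018, and of -0.051 without untreated replicate 3. Vcp, the segregase that unfolds ubiquitin-marked proteins and clears damaged lysosomes, was at 388, 386, 330, 375 and 375 CPM in untreated and at 360, 357, 347, 327 and 317 CPM in RG2833 rats. Here too the RG2833 values were all below 4 untreated ones, with untreated replicate 3 among the RG2833 values. The means were 371 ± 23.7 and 342 ± 18.8 CPM, a log2 fold change of -0.12 (interval -0.27 to 0.029; unadjusted p = 0.105, adjusted p = 0.841; exact permutation p = 0.0952) and -0.16 without untreated replicate 3 (unadjusted p = 0.0249, adjusted p = 0.319), but -0.091 without RG2833 replicate 5.

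Since the libraries differed in the levels of cell type markers, each gene was compared with the mean log2 CPM of 4 marker lists over the 10 libraries. The genes, the markers and the scaling share the same libraries, so these correlations describe how levels ran together in them. Of the 43 genes, 4 were positively and 5 negatively correlated with the microglia markers at an adjusted p under 0.05 (permutation test, adjusted over 12151 genes), where 15.1% of all genes were positive and 17.7% negative. With the neuron markers 6 were positive and 5 negative, against 13.8% and 9.91%. With the astrocyte markers 4 were positive and 6 negative, against 10.7% and 7.84%. With the oligodendrocyte markers 0 were positive and 0 negative, against 0.0% of all genes each way. Npc1 had the largest r with them, 0.959 (rho = 0.879, permutation p = 0.00011), but did not pass (adjusted permutation p = 0.0994). Its r was 0.916 without untreated replicates 4 and 5, the libraries farthest from the median of these markers. The counts of members that passed are small, and their shares were not tested against those of all genes. Without the 2 libraries farthest from each list's median, 0, 0 and 2 of the 43 passed for microglia, neuron and astrocyte markers, over 8 libraries, beside 0, 0 and 468 of all genes.

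Map1lc3a had the highest Pearson correlation with the microglia markers over all 10 libraries, r = 0.944 (rho = 0.83; permutation p = 5e-05, adjusted p = 0.00295). Without the 2 libraries farthest from the median, untreated replicate 3 and RG2833 replicate 5, r was 0.853. Npc2 had r = 0.927 (rho = 0.745; permutation p = 0.00027, adjusted p = 0.00619) and 0.778 without these libraries. Lamp1 did not pass by Pearson's r (0.714, adjusted permutation p = 0.0617) but had the highest rho, 0.927 (adjusted permutation p = 0.0163), and r = 0.945 without these libraries. Mcoln1 ran against them, r = -0.951 (rho = -0.927; permutation p = 0.00011, adjusted p = 0.00403) and -0.898 without the same 2 libraries. Optn went from r = -0.867 (rho = -0.636; permutation p = 0.00189, adjusted p = 0.0137) to -0.583 without them (permutation p = 0.123). Tbk1 and Becn1 had r of -0.891 and -0.81 in all libraries (adjusted permutation p = 0.0103 and 0.0287) and of -0.585 and -0.539 without the 2 (permutation p = 0.133 and 0.182). Ctsz, Scarb2 and Vcp also passed, with r of 0.896, 0.758 and -0.806.

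With the neuron markers, Becn1 had r = 0.885 (rho = 0.77; permutation p = 0.00083, adjusted p = 0.0126) and 0.875 without untreated replicates 1 and 3, the 2 libraries farthest from the median. Ctsz ran against them, r = -0.901 (rho = -0.806; permutation p = 0.0004, adjusted p = 0.00905) and -0.781 without the 2. Mcoln1, Vcp, Pik3c3, Optn and Tbk1 were the other genes with a positive correlation, and Tpp1, Npc2, Lamp2 and Scarb2 the others with a negative one.

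All 9 of the astrocyte markers tested had a higher mean in the RG2833 libraries, with a median log2 fold change of 0.33 (2 markers at an unadjusted p under 0.05; exact permutation p for the list's mean = 0.0952). Their summed level ran from 6858 to 10682 CPM in untreated and from 7932 to 11719 CPM in RG2833 rats. The group means of these markers and of Vcp, Sqstm1 and Scarb2 were unequal, though none passed the adjusted test for the members, so r centred on the group means is given too. Uncentred, 10.7% of all genes passed with a positive and 7.84% with a negative r to the astrocyte markers. Centred, 4 members passed with a positive and 9 with a negative r, beside 3967 of all 12152 genes. Vcp had r = -0.941 (rho = -0.939; permutation p = 0.00011, adjusted p = 0.00463) and Sqstm1 had r = -0.899 (rho = -0.891; permutation p = 0.00038, adjusted p = 0.00876). Scarb2 had r = 0.874 (rho = 0.867; permutation p = 0.0011, adjusted p = 0.015). Lamp1, whose p between treatments was 0.211, had r = 0.868 (rho = 0.903; permutation p = 0.00045, adjusted p = 0.0093). Without untreated replicate 2 and RG2833 replicate 4, r was -0.928 for Vcp, -0.882 for Sqstm1, 0.881 for Scarb2 and 0.793 for Lamp1. Centred on the group means, r was -0.912, -0.854, 0.811 and 0.82. The other members that passed were Mcoln1 (r = -0.849), Optn (r = -0.836), Gaa (r = -0.82), Atg16l1 (r = -0.814), Map1lc3a (r = 0.8) and Npc2 (r = 0.794), with adjusted permutation p from 0.0209 to 0.0427. Ppt1 (r = 0.38), Rb1cc1 (r = 0.34) and Cln3 (r = 0.12) were among those that did not pass. The part of these markers in the differences between treatments was not tested.

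**Figure D5:**
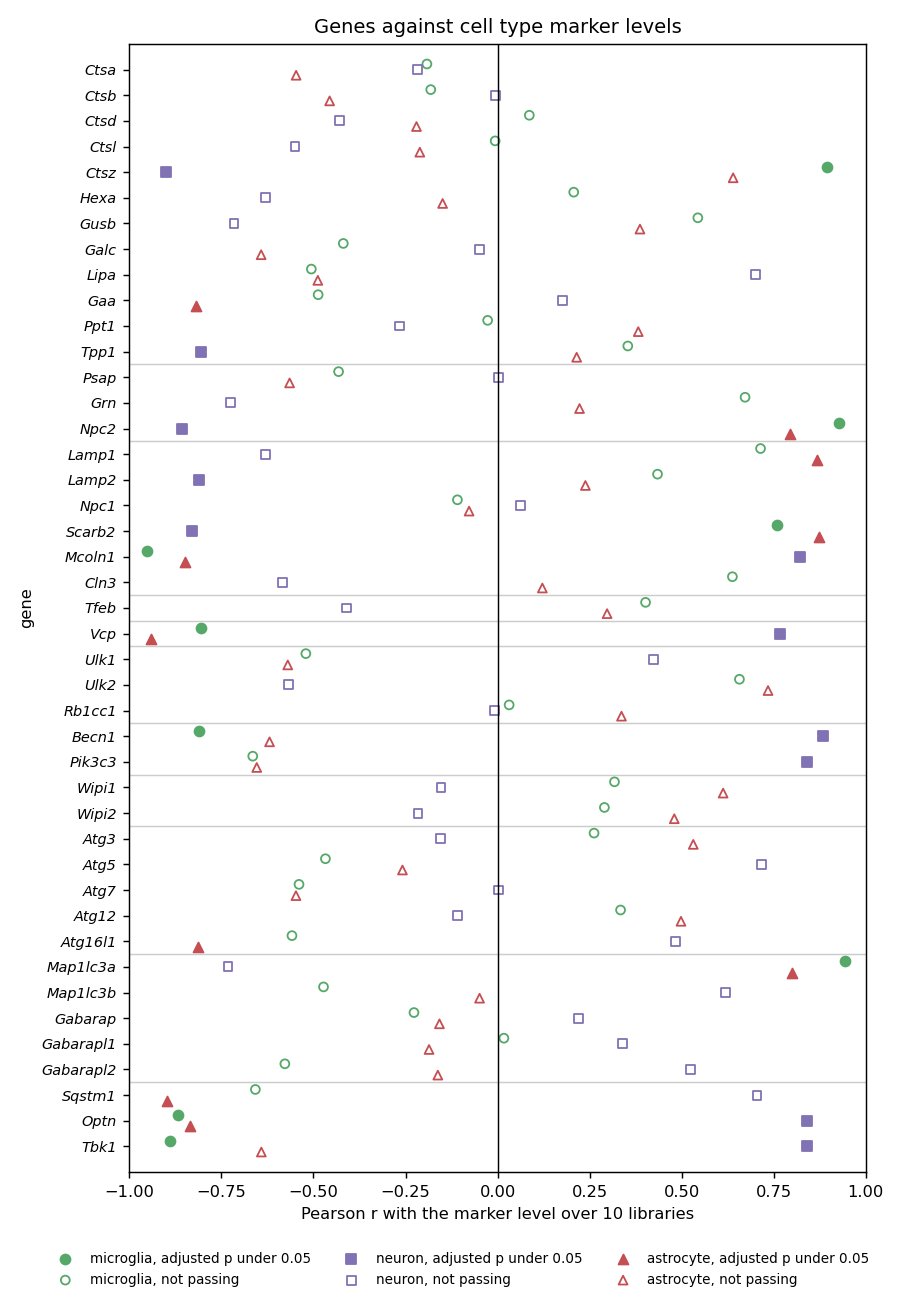
Pearson r over 10 libraries (x axis) between the log2 CPM of each of the 43 genes (rows) and the mean log2 CPM of microglia (circles), neuron (squares) and astrocyte (triangles) markers; filled symbols have an adjusted permutation p under 0.05. Filled symbols reach -0.951 for Mcoln1 with microglia, -0.941 for Vcp with astrocytes and 0.944 for Map1lc3a with microglia, and most hydrolases have open symbols only.

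Other genes of the pathway were read from the same fit. Of 127 listed, 117 were tested, 0 had an adjusted p under 0.05 with edgeR and 2 had an unadjusted p under 0.05, beside 688 of all 12161 genes. With 2 surrogate variables 1 had an adjusted p under 0.05 (Tsc2, an inhibitor of TORC1, log2 fold change 0.35, adjusted p = 0.00439, beside 118 of all genes) and 16 an unadjusted one (1951 of all genes), and with limma-voom the counts were 0 and 8 (1263 of all genes at the unadjusted threshold). In edgeR's main comparison, 50 had a higher and 67 a lower mean with RG2833, which turned to 64 and 53 without RG2833 replicate 4 or 5 and to 61 and 56 with 2 surrogate variables. Over all genes tested, 5652 had a higher and 6509 a lower mean with RG2833. The 17 subunits and accessory proteins of the V-ATPase, the pump that acidifies the lysosome, comprised 3 higher and 14 lower, with a median log2 fold change of -0.057 and a range from -0.20 to 0.18. This split was the same under every scaling tried and in most fits with 1 library left out, but 5 and 12 without untreated replicate 1, 4 and 13 without RG2833 replicate 4 and 6 and 11 with RG2833 replicate 5 left out. The median was -0.12 with untreated replicate 3 left out, -0.0095 with untreated replicate 1 left out and -0.01 with RG2833 replicate 5 left out. Of the 25 other hydrolases tested 10 were higher and 15 lower (median -0.021), and of 14 other membrane and trafficking genes 5 were higher and 9 lower (median -0.012). The 19 genes that control TORC1 and TFEB comprised 11 higher and 8 lower (median 0.022), and 17 other autophagosome genes 7 higher and 10 lower (median -0.018). Fusion genes were 7 higher and 5 lower (median 0.014), and other selective receptors 7 higher and 6 lower (median 0.0044). With 1 library left out, the number higher ran from 9 to 15 among the other hydrolases, 4 to 8 among the membrane and trafficking genes, 10 to 14 among the TORC1 and TFEB genes, 6 to 9 among the other autophagosome genes, 5 to 8 among the fusion genes and 4 to 10 among the other receptors. The medians ran, in the same order, from -0.098 (RG2833 replicate 1 out) to 0.025 (untreated replicate 2 out), from -0.031 (untreated replicate 3 out) to 0.016 (RG2833 replicate 5 out), from 0.018 (RG2833 replicate 5 out) to 0.047 (untreated replicate 1 out), from -0.031 (untreated replicate 4 out) to 0.016 (untreated replicate 5 out), from -0.037 (untreated replicate 3 out) to 0.015 (RG2833 replicate 3 out) and from -0.036 (untreated replicate 3 out) to 0.021 (RG2833 replicate 4 out). The medians of the TORC1 and TFEB genes and of the V-ATPase genes kept their sign in all 10 of these fits. Those of the other groups did not.

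The 2 further genes with an unadjusted p under 0.05 both had a higher mean with RG2833, and with 1 library left out the number of such genes ran from 0 (untreated replicate 1 or RG2833 replicate 4 out) to 12 (untreated replicate 3 out). Lamtor2, part of the Ragulator complex that anchors TORC1 at the lysosome, was at 61.3, 62.3, 75.9, 62.8 and 63.8 CPM in untreated and at 69.5, 75, 68.3, 78.2 and 77.8 CPM in RG2833 rats. All RG2833 values lay above 4 of the untreated ones, and untreated replicate 3 lay among them. The log2 fold change was 0.18 (interval 0.016 to 0.34; edgeR's unadjusted p = 0.0344, adjusted p = 0.841; exact permutation p = 0.0476). Plekhm1, an adaptor for fusion with the lysosome, was at 40.9, 45.5, 39.8, 42.1 and 42.9 CPM in untreated and at 48, 43.1, 46.8, 48.5 and 47.4 CPM in RG2833 rats. All RG2833 values but that of replicate 2 lay above all untreated ones. Its log2 fold change was 0.15 (interval 0.022 to 0.27; edgeR's unadjusted p = 0.0254, adjusted p = 0.841; exact permutation p = 0.0159).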

How the data were processed

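RNA from the left hippocampus of 10 rats was isolated with the RNeasy Mini kit, and stranded mRNA libraries were prepared with a Kapa kit, per the labels' protocols. The labels give 1 rat per library. Per the submitters' processing notes, bcl2fastq 2.17, Bowtie2 2.1.0, RSEM 1.2.15 and edgeR were used with build rn6; the annotation and settings are not given in the sources used here. The authors deposited expected counts per gene (RSEM estimates, of which 11.6% were not whole) and a second table with a TMM-scaled CPM signal. Whole reads were recovered from that deposited signal: in each library 100% of its values above 0 were whole multiples of 1 step (within 0.01 reads or 1e-04 of the value), and 100% equalled the rounded expected counts, so a count test on them is the test used here. The series' design text once names another drug, ibudilast, in the place of RG2833; the treatment labels name RG2833 and were followed.

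For the comparison of RG2833 with untreated, edgeR 4.0.16 (R 4.3.3) was run on the rounded counts: filterByExpr (minimum count 10, minimum total count 15) kept 12161 of 17168 genes (70.8%), TMM set the library sizes, and the robust quasi-likelihood F test was used with Benjamini-Hochberg adjustment over all genes tested and a threshold of 0.05. Log2 CPM used a prior count of 2. Intervals are 95% intervals of the fitted log2 fold change. Single genes were also compared by two-sided exact permutation over all 252 regroupings of 5 and 5 libraries (smallest possible p 0.00794). Correlations used 100000 resamples, two-sided (smallest possible p 1e-05), with 4 marker lists as 4 families. The scripts were tested on simulated data.

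The members and lists were chosen with earlier results of these data known. Values in every library are given for the member of each role with the smallest p, the member of each role farthest off in untreated replicate 3 relative to the spread of the other untreated libraries, and 12 members named in any case; Psap, in every library, and single values of Gaa and Cln3 were added after their values were seen. The labels do not say whether the replicate numbers in the sample titles pair the rats, and the main comparison treated them as unpaired. Promoter sequences and motif counts are from RefSeq (GRCr8). The alternatives tried were other scalings, filters and tools (DESeq2 1.42.0, limma 3.58.1, sva 3.50.0), a replicate block, and leaving out libraries.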

Additional observations from a re-analysis of the deposited data

Results flagged for a closer look

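In groups of 5 rats, a value was singled out when its gap to the nearest other value was over 0.71 of the group's range (Dixon's 95% critical value). This held for 15 of the 108 sets looked at, where chance alone gives about 5.4. Galc stood at 13.5 CPM in untreated replicate 2, against 9.18 to 9.72 in the other untreated rats, and at 13.4 CPM in RG2833 replicate 1, against 8.64 to 9.82 in the others fed RG2833. Psap stood at 2531 CPM in untreated replicate 2 (others 1931 to 2058) and at 2773 CPM in RG2833 replicate 1 (others 1911 to 2035). Atg7 was high in the same pair of libraries, at 23.3 CPM (others 15.5 to 17.4) and 21.4 CPM (others 16.2 to 17.4). Gaa was at 352 CPM in RG2833 replicate 1 (others 239 to 263). The mean of the choroid plexus markers in that library was 5.12 log2 units above the mean of all libraries, and the other RG2833 libraries ran from -2.81 to -0.68.

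Untreated replicate 3 was singled out for Npc2 at 236 CPM (others 125 to 144), for Vcp at 330 CPM (others 375 to 388) and for Optn at 83.8 CPM (others 98.4 to 101). Its microglia marker mean was 0.64 log2 units above the mean of all libraries (others -0.32 to -0.12). RG2833 replicate 5 was singled out for the cholesterol transporter gene Npc1 at 116 CPM (others 86 to 92.1) and for Ulk2 at 140 CPM (others 120 to 124). Gabarapl2 was low in RG2833 replicate 4, at 211 CPM (others 220 to 222).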

How the results depend on the processing

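No member had an adjusted p under 0.05 in any of the 20 alternatives; the smallest was 0.107, for Scarb2 with 2 surrogate variables. The sign stayed the same in all of them for 28 of the 43 genes, and under other scalings (median-of-ratios, upper-quartile, ribosomal RNA genes removed, the last chosen after seeing the data) and filters for all 43. Over all genes, DESeq2 gave 7 and 2 surrogate variables 118 genes with an adjusted p under 0.05; at an unadjusted p under 0.05, upper-quartile scaling gave 259 higher and 400 lower genes, 2 surrogate variables 1243 and 708, and limma-voom 726 and 537, against 358 and 330. The members with an unadjusted p under 0.05 were 1 under upper-quartile scaling, 2 with DESeq2 (750 of all genes), 4 with limma-voom and sample weights, 6 with 2 surrogate variables, 2 without the 2 libraries richest in choroid plexus markers (596 of all genes), and 0 to 5 when 1 library was left out. The cause was not tested.

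The expression values gave no sign that the replicate numbers pair the rats. Deviations of same-numbered rats correlated at -0.26, -0.11, -0.49, -0.034 and -0.20, and 0 of 5 matched its own number best. Whether the numbers mark a pairing in the design cannot be read from these values. With a replicate block 0 genes had an adjusted p under 0.05 and 401 an unadjusted one; the hydrolase median was 0.0043 and the autophagosome median 0.027.

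Signs reversed with limma-voom for Ctsb (0.0046), Hexa (0.023) and Lipa (0.0026), with 2 surrogate variables for Ctsb (0.0086), Hexa (0.022) and Galc (0.036), and without the choroid-rich libraries for Ctsd (-0.018), Psap (-0.00503), Tfeb (0.027), Becn1 (-0.014) and Tbk1 (-0.0048). With 1 library left out, the log2 fold change ran from -0.047 to 0.012 for Ctsb, -0.069 to 0.092 for Ctsd, -0.046 to 0.10 for Ctsl, -0.0404 to 0.22 for Ctsz, -0.13 to 0.034 for Hexa, -0.17 to 0.078 for Galc, -0.048 to 0.014 for Lipa, -0.076 to 0.11 for Psap, -0.0058 to 0.083 for Lamp2, -0.11 to 0.024 for Tfeb, -0.032 to 0.052 for Becn1, -0.076 to 0.016 for Pik3c3, -0.017 to 0.039 for Atg5, -0.056 to 0.14 for Atg7 and -0.051 to 0.078 for Tbk1. The hydrolase median ran from -0.046 to 0.056, the autophagosome median from 0.0034 to 0.039 and their difference from -0.069 to 0.028 (0.0051 with limma-voom and all libraries).

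Of the correlations, with Spearman's rho 4 members passed for microglia, 0 for neuron and 6 for astrocyte markers (1365, 733 and 1301 of all genes), and without the 2 libraries farthest from the median 0, 0 and 2 (0, 0 and 468 of all genes), over 8 libraries; centred on the group means, 13, 15 and 13 passed (4858, 3663 and 3967 of all genes). For 12 of the 43 genes the 95% interval reached past 1.25-fold, so a difference of that size lies within it.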

Other observations

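Markers of plaque-associated microglia, the state that surrounds amyloid and is rich in lysosomal transcripts, summed to 160 to 192 CPM in untreated and 179 to 199 CPM in RG2833 rats. Of the 8 tested, 4 had a higher and 4 a lower mean with RG2833 (exact permutation p of the list's mean 0.619), and the list did not share the high value of the microglia markers in untreated replicate 3, where its mean was 0.085 log2 units above the mean of all libraries. Of the other lists fixed for cell types, the astrocyte markers had the smallest exact permutation p, 0.0952, with all 9 higher with RG2833, and the rest were microglia (exact permutation p = 0.794), neurons (0.667), hippocampal neurons (0.802), oligodendrocytes (0.73), endothelium (0.444) and choroid plexus (0.532). Markers higher and lower with RG2833 were 7 and 3 for microglia, 1 and 9 for neurons and 3 and 5 for hippocampal neurons. They were 2 and 8 for oligodendrocytes, 7 and 2 for endothelium and 8 and 5 for choroid plexus.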
